A study of Mus musculus with 22 samples.

Results

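Lysosomal hydrolases and the cofactors they need were followed at the mRNA level in mouse liver, as a set of 31 genes taken by symbol out of the 55573 genes counted. The 31 genes encode 12 glycosidases, 6 sulfatase genes including the enzyme that activates sulfatases, 5 lipid and thioester hydrolases, 4 peptidase and amidase genes, and 4 activators, carriers or acetyltransferases, and the cathepsins are not among them. All 31 had a mean count of at least 10 and were tested with 14062 genes in all. The data were mRNA-seq counts from 22 livers in 4 groups set by genotype and diet. The mice were C57BL/6. Knockout mice (FLCN KO) were Flcn f/f; Albumin-Cre+/-, so that Cre driven by the albumin promoter removed Flcn exon 7 in hepatocytes, and Cre controls were FlcnWT/WT; Albumin-cre+/-, so both genotypes carried the transgene. From 6 weeks of age and for 6 weeks, mice ate either chow with 10 kcal percent fat or the methionine/choline deficient (MCD) diet, which is used to bring on fatty, inflamed and scarred livers, and the livers of all 4 groups were taken at 3 months of age. The chow and MCD diets came from different suppliers, and supplier and composition cannot be told apart from the missing nutrients. There were 6 Cre Chow, 5 Cre MCD, 5 FLCN KO Chow and 6 FLCN KO MCD libraries, with total counts between 13751347 and 21144388. The question for this gene set was how its transcripts differed between FLCN KO and Cre livers on each diet, and with the diet in each genotype.

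Lysosomal hydrolases are made in the endoplasmic reticulum, most receive a mannose 6-phosphate tag in the Golgi and are carried by receptors to the lysosome, where they break down sugars, sulfated glycans, lipids and proteins that arrive by endocytosis and autophagy. Folliculin, the product of Flcn, works with the FNIP proteins at the lysosome surface to let the mTOR complex phosphorylate TFEB and TFE3, which keeps these transcription factors out of the nucleus. TFEB and TFE3 bind E-box sequences in the promoters of many lysosomal genes. In liver, both hepatocytes and macrophages are rich in lysosomes.

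The E-box CACGTG, which reads the same on both strands, was looked for in RefSeq promoter windows (GRCm38.p6) from 250 bases before to 50 bases after each annotated start. Windows were matched for 27 of the 31 members, all but Aga, Asah1, Galns and Hgsnat, and 9 of the 27 held an E-box (33.3%), against 8.09% of the 27025 gene symbols matched. Each of those 9 windows also held the motif with a T before it (TCACGTG on either strand), against 4.29% of all symbols, and 7 of them (25.9%) held GTCACGTG, against 2.55%. These longer forms contain the shorter one, and a match describes the letters of the window, not a binding site. The E-box windows below are shown because they let a reader compare the letters around the motif in members that rose in FLCN KO livers (Dpp7, Gaa and Naglu) and in members that did not pass that test (Gla, Glb1, Lgmn and Sgsh). Each is 30 bases of GRCm38, written 5′ to 3′ toward the gene's start with the motif in capitals. The windows are Dpp7 at chr2:25356388-25356417 (minus strand), Gaa at chr11:119267811-119267840 (plus), Naglu at chr11:101070009-101070038 (plus), Gla at chrX:134601215-134601244 and chrX:134601182-134601211 (minus), Glb1 at chr9:114401018-114401047 (plus), Lgmn at chr12:102439124-102439153 (minus) and Sgsh at chr11:119355522-119355551 (minus).
Dpp7: ccgccagactatCACGTGatgctgccccgc
Gaa: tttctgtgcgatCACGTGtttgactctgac
Naglu: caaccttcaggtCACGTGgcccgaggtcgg
Gla, farther from the start: taagcgattgatCACGTGagcatctacgtc
Gla, nearer to the start: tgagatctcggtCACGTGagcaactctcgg
Glb1: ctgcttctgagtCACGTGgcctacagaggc
Lgmn: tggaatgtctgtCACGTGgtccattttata
Sgsh: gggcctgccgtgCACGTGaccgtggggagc

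In these windows between 23 bases (Sgsh) and 221 bases (the farther Gla site) lay between the end of the motif and the start. Arsa and Sumf1 also held an E-box, within 10 and 5 bases of the start. Among the 15 members that rose in FLCN KO livers on either diet, 13 had a window and 4 of those held an E-box (Naglu, Sumf1, Dpp7 and Gaa). Among the other 16 members, 14 had a window and 5 held one (Arsa, Gla, Glb1, Lgmn and Sgsh), so the motif was not confined to the members that rose.

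The labelled tissue and genotype were examined first. Hepatocyte markers were the most abundant marker list, led by Alb with a mean of 79160 CPM (read counts scaled to library size with TMM factors, which offset differences in library composition). Flcn itself measured 26.1 to 40.2 (median 31.8) CPM in Cre Chow livers and 24.2, 19.96, 16.7, 19.4 and 21.8 CPM in the 5 FLCN KO Chow livers. On MCD it measured 31.8, 18.2, 39.9, 32.5 and 23.6 CPM in Cre and 17.6 to 32.6 (median 26.6) CPM in FLCN KO livers. On chow every FLCN KO library lay below every Cre library, with a log2 fold change of -0.63 (SE 0.17, adjusted p = 0.025), whereas on MCD the genotypes overlapped, with -0.16 (SE 0.17, adjusted p = 0.57). Gene-level counts hold reads from all Flcn exons and from cells that the albumin promoter does not reach, so they check the loss of a single exon only in part.

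Some libraries stood apart. The 5 chow libraries Cre Chow 1, 5 and 6 and FLCN KO Chow 1 and 3 had a low share of mapped reads, and they were also the 5 chow libraries that read as male from Y-linked genes, so on chow mapping and sex cannot be told apart. Fits without these 5 libraries keep only chow libraries that read as female, while 2 Cre MCD and 3 FLCN KO MCD libraries read as male. In those fits diet and sex cannot be told apart in the diet comparisons and the interaction. Skeletal muscle transcripts summed to 3161 CPM in Cre MCD 3, 153 CPM in Cre MCD 4 and 70.0 CPM in FLCN KO MCD 3, against 20.1 CPM or less in the other libraries. With Cre MCD 3 left out, the genotype comparison on MCD gave 14 members higher and 2 lower, against 14 and 1 with it.

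In FLCN KO livers a large part of the set was more abundant than in Cre livers. On chow, 10 of the 31 members rose and 0 fell, where 5.52% of all tested genes rose and 3.10% fell (edgeR, Benjamini-Hochberg adjusted p under 0.05). At an unadjusted p under 0.05, 1 member was lower on chow (Hgsnat), and limma-voom and DESeq2 also called 0 lower. On MCD, 14 members rose and 1 fell, Gm2a, where 8.06% of all genes rose and 8.53% fell. The median log2 fold change of the members was 0.32 on chow and 0.40 on MCD, with 27 and 28 members above 0, against medians of -0.03 and -0.01 over all tested genes. Groups did not overlap, with FLCN KO above Cre, for 11 members on chow (4.01% of all genes) and 12 on MCD (5.08%). Differences below are FLCN KO over Cre on the log2 scale, with the SE of the edgeR fit, unless said otherwise. In bulk liver, more RNA per cell and more cells of a type cannot be told apart. The 9 members that rose on both diets were Hexa, Man2b1, Naglu, Arsb, Sumf1, Ppt1, Tpp1, Dpp7 and Aga. Gusb passed on chow alone, and Gaa, Galc, Idua, Neu1 and Asah1 passed on MCD alone, which does not by itself show that the diets differed. The comparisons on chow and on MCD share no libraries. Over 33 fits, most of them with another setting or a single library left out, all 14 calls on MCD were kept in each, and 7 of those on chow were (Aga, Arsb, Dpp7, Gusb, Hexa, Ppt1 and Tpp1). Without the 5 chow libraries with a low mapped share, 8 members rose on chow, where 374 of 14271 genes rose and 121 fell. Members that did not pass in all libraries passed in some other fits beside those with library size alone, on chow Arsa, Asah1, Galc, Galns and Smpd1 (all higher), and on MCD Arsa and Galns (higher) and Lgmn (lower, without Cre MCD 3 or FLCN KO MCD 2). Scaled by library size alone, 18 members rose and 0 fell on chow, where 1452 of all genes rose and 125 fell (776 and 436 with TMM) and the median of all genes shifted to 0.12.

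**Figure D1:**
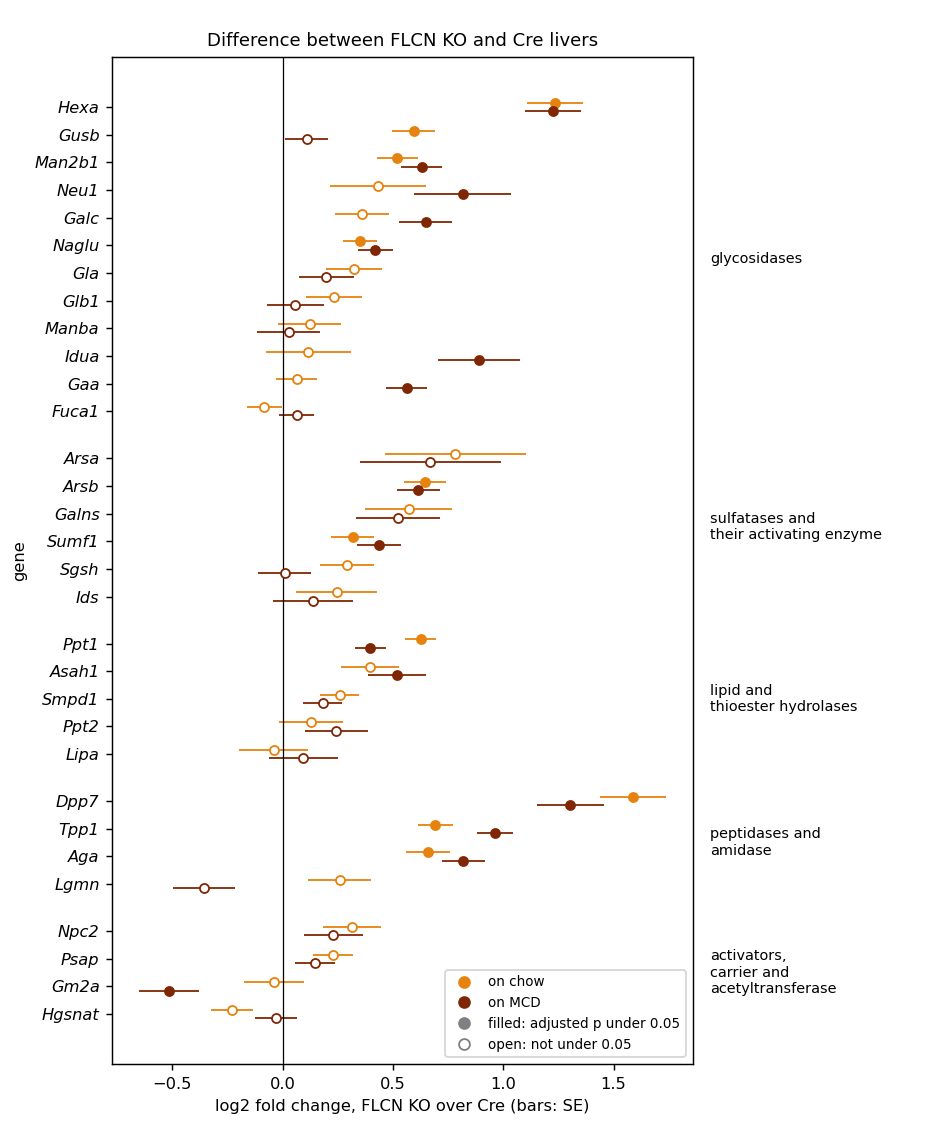
Log2 fold change of FLCN KO over Cre livers for each of the 31 members (x axis), grouped by role, on chow (orange) and MCD (brown), with bars of 1 SE and filled points where the edgeR adjusted p is under 0.05. Dpp7 (1.59 and 1.30) and Hexa (1.24 and 1.23) lie farthest to the right, and Gm2a on MCD (-0.52) is the filled point left of 0.

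Glycosidases, which remove sugars from glycans, glycolipids and glycogen, held 4 members that rose on chow and 7 that rose on MCD, of 12. Hexa encodes the alpha subunit of beta-hexosaminidase, whose loss causes Tay-Sachs disease, and lies on chromosome 9 (GRCm38, 59539540 to 59565109, plus strand). It measured 42.2 to 59.1 (median 52.8) CPM in Cre Chow and 157, 80.4, 131, 124 and 119.9 CPM in FLCN KO Chow livers. On MCD it measured 81.03, 69.5, 76.8, 96.4 and 88.3 CPM in Cre and 159 to 205 (median 198) CPM in FLCN KO livers. Every FLCN KO library lay above every Cre library on the same diet, and FLCN KO Chow 2 was the lowest of its group. Hexa differed by a log2 fold change of 1.24 (SE 0.13, adjusted p = 9.5e-07) on chow and 1.23 (SE 0.13, adjusted p = 1.6e-06) on MCD. Tmem202 shares 12.8% of the Hexa exon length on the other strand and had a mean of 3.82 counts per library, against 2177 for Hexa.

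Man2b1, the lysosomal alpha-mannosidase, measured 92.9 to 117 (median 99.1) CPM in Cre Chow and 166, 141, 141, 141 and 136 CPM in FLCN KO Chow livers. With MCD the values were 111, 114, 131, 135 and 114 CPM in Cre and 156 to 208 (median 198) CPM in FLCN KO livers. The genotypes did not overlap on either diet. The Man2b1 difference was 0.52 (SE 0.09, adjusted p = 8.3e-04) on chow and 0.63 (SE 0.09, adjusted p = 9.5e-05) on MCD, and without the 5 chow libraries with a low mapped share the chow value was 0.46 (adjusted p = 0.063). Naglu, an N-acetylglucosaminidase needed for heparan sulfate breakdown, measured 25.8 to 31.4 (median 30.1) CPM in Cre Chow and 42.5, 37.1, 32.5, 39.3 and 36.1 CPM in FLCN KO Chow livers. In MCD-fed mice Naglu measured 29.1, 27.5, 30.4, 32.5 and 33.1 CPM in Cre and 37.95 to 44.04 (median 40.7) CPM in FLCN KO livers. Naglu was higher in every FLCN KO library than in any Cre library of the same diet, though narrowly on chow. The Naglu difference was 0.35 (SE 0.08, adjusted p = 0.0056) on chow and 0.42 (SE 0.08, adjusted p = 8.4e-04) on MCD, and without the same 5 libraries it was 0.29 on chow (adjusted p = 0.11).

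Gusb, beta-glucuronidase, which acts on glycosaminoglycans, passed between genotypes on chow. It measured 26.99 to 35.5 (median 30.9) CPM in Cre Chow and 52.2, 37.1, 48.3, 51.01 and 46.99 CPM in FLCN KO Chow livers, without overlap. On MCD the values were 50.4, 50.3, 48.3, 57.9 and 60.1 CPM in Cre and 46.9 to 63.3 (median 59.4) CPM in FLCN KO livers, and the ranges overlapped. Gusb had a difference of 0.59 (SE 0.10, adjusted p = 3.1e-04) on chow and 0.11 (SE 0.10, adjusted p = 0.49) on MCD. Gaa, acid alpha-glucosidase, which degrades glycogen in lysosomes, passed on MCD. Gaa measured 85.3 to 93.8 (median 92.2) CPM in Cre Chow and 102, 91.5, 95.4, 97.5 and 90.2 CPM in FLCN KO Chow livers, which overlapped. On MCD Gaa measured 67.7, 88.8, 58.9, 68.8 and 67.01 CPM in Cre and 89.2 to 126 (median 102) CPM in FLCN KO livers, where the highest Cre library (Cre MCD 2) lay just under the lowest FLCN KO library. The Gaa difference was 0.06 (SE 0.09, adjusted p = 0.74) on chow and 0.56 (SE 0.09, adjusted p = 3.7e-04) on MCD.

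The test of the diet dependence itself, the interaction of genotype and diet, called 1 member higher and 1 lower, where 3.29% of all genes were higher and 5.54% lower. Gaa had an interaction of 0.50 (SE 0.13, adjusted p = 0.024), so that the FLCN KO minus Cre difference was larger on MCD, and Gusb had -0.49 (SE 0.14, adjusted p = 0.029), so that it was smaller on MCD. Both calls were lost without the 5 chow libraries with a low mapped share (0.56, adjusted p = 0.07 for Gaa, and -0.46, adjusted p = 0.12 for Gusb). The values stayed close to those of all libraries. That fit has fewer libraries and no male-reading chow library, so the loss of the calls cannot be assigned to mapping. The Gusb call was also lost when Cre MCD 4, FLCN KO Chow 4 or FLCN KO MCD 3 was left out, with values between -0.46 and -0.43 (adjusted p = 0.051 to 0.061). The Gaa call was lost in the fit with the replicate number as a block (0.47, adjusted p = 0.075), without a filter on low counts (0.48, adjusted p = 0.068) and with scaling by library size alone (0.33, adjusted p = 0.15). Lgmn, at -0.62 (SE 0.20, adjusted p = 0.058), and Idua, at 0.77 (SE 0.27, adjusted p = 0.074), came next and did not pass. Both were near the threshold. Lgmn passed in DESeq2 (-0.62, adjusted p = 0.029), with at least 10 counts in every library (-0.65, adjusted p = 0.049), with sex as a covariate (-0.64, adjusted p = 0.049), with library size alone (-0.77, adjusted p = 0.021) and without Cre MCD 2, Cre MCD 3 or FLCN KO MCD 2. Idua passed in DESeq2 (0.77, adjusted p = 0.047) and limma-voom (0.90, adjusted p = 0.047) and without Cre MCD 5 or FLCN KO Chow 1. Gm2a passed without Cre MCD 2 (-0.59, adjusted p = 0.03) and with library size alone (-0.63, adjusted p = 0.035). Ppt1 also passed with library size alone (-0.39, adjusted p = 0.025).

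**Figure D2:**
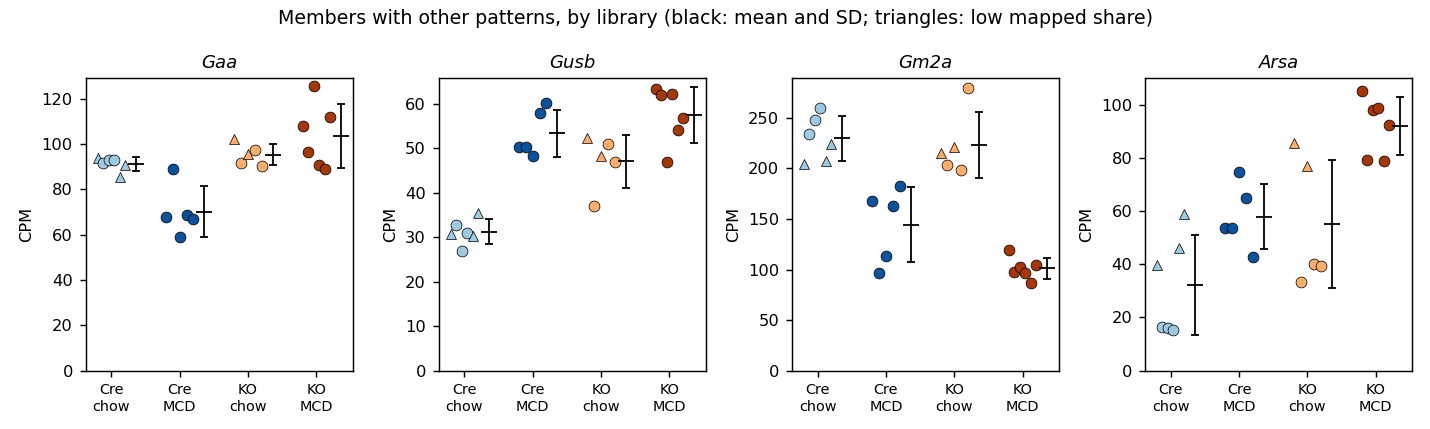
CPM in each of the 22 libraries for Gaa, Gusb, Gm2a and Arsa, by group, with the mean and SD in black and triangles for the 5 chow libraries with a low mapped share. Gaa separates the genotypes on MCD, Gusb on chow, Gm2a falls with MCD, and on chow the Arsa triangles lie above the circles in each genotype (39.8 to 58.9 CPM over at most 16.5 CPM in Cre livers).

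Galc, galactosylceramidase, the enzyme missing in Krabbe disease, measured 5.29 to 7.47 (median 6.38) CPM in Cre Chow and 8.02, 5.94, 9.61, 7.94 and 8.95 CPM in FLCN KO Chow livers. On MCD the Galc values were 9.51, 6.64, 8.72, 9.46 and 8.45 CPM in Cre and 11.9 to 14.7 (median 13.6) CPM in FLCN KO livers. The ranges overlapped on chow and separated on MCD. For Galc the difference was 0.36 (SE 0.12, adjusted p = 0.07) on chow and 0.65 (SE 0.12, adjusted p = 8.1e-04) on MCD. Idua, alpha-L-iduronidase, which cleaves dermatan and heparan sulfate, was among the least abundant members, at 4.03 to 5.37 (median 4.68) CPM in Cre Chow and 6.93, 5.23, 5.84, 3.20 and 4.58 CPM in FLCN KO Chow livers. With MCD, Idua measured 5.31, 4.09, 6.51, 4.85 and 9.17 CPM in Cre and 9.43 to 12.9 (median 11.1) CPM in FLCN KO livers. Idua libraries overlapped on chow and separated narrowly on MCD, where Cre MCD 5 came closest to the FLCN KO libraries. The Idua difference was 0.12 (SE 0.19, adjusted p = 0.76) on chow and 0.89 (SE 0.19, adjusted p = 0.0024) on MCD. Slc26a1 shares 3.35% of the Idua exon length on the other strand and was far more abundant (a mean of 3756 counts per library against 131.5), and its mean count on MCD was 4156 in Cre and 3457 in FLCN KO livers. Dgkq shares 2.95% of the Idua exon length on the other strand, with a mean of 377.3 counts. Its mean count on MCD was 333.8 in Cre and 442.5 in FLCN KO livers, higher in FLCN KO as for Idua.

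Neu1, lysosomal sialidase, varied widely within groups. It measured 35.5 to 60.8 (median 47.9) CPM in Cre Chow and 96.5, 41.4, 67.6, 54.1 and 64.9 CPM in FLCN KO Chow livers, and 61.9, 54.4, 39.98, 63.6 and 62.7 CPM in Cre MCD and 58.6 to 142 (median 92.2) CPM in FLCN KO MCD livers. Neu1 libraries of the 2 genotypes overlapped on both diets. Neu1 differed by 0.43 (SE 0.22, adjusted p = 0.24) on chow and 0.82 (SE 0.22, adjusted p = 0.013) on MCD. The other glycosidases did not pass in either genotype comparison. Gla (alpha-galactosidase A) had 0.32 on chow and 0.20 on MCD, Glb1 (beta-galactosidase) 0.23 and 0.06, Manba (beta-mannosidase) 0.12 and 0.03, and Fuca1 (alpha-fucosidase) -0.08 and 0.06.

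Sulfatases remove sulfate groups from glycans and lipids and work only after Sumf1, in the endoplasmic reticulum, has converted a cysteine of their active site. Arsb, arylsulfatase B, which acts on dermatan sulfate, measured 29.03 to 38.1 (median 34.5) CPM in Cre Chow and 51.7, 47.2, 52.99, 59.6 and 55.7 CPM in FLCN KO Chow livers. On MCD the Arsb values were 26.2, 18.4, 24.98, 22.8 and 24.8 CPM in Cre and 32.3 to 41.4 (median 34.7) CPM in FLCN KO livers. Arsb was higher in every FLCN KO library on both diets, and lower on MCD than on chow within each genotype. Arsb had a difference of 0.64 (SE 0.10, adjusted p = 1.2e-04) on chow and 0.61 (SE 0.10, adjusted p = 1.8e-04) on MCD. Other annotated genes overlap Arsb exons on the other strand, Gm26527 (32.3% of the exon length, a mean of 0.50 counts) and Gm47210 (7.67%, 1.73 counts).

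Sumf1 measured 30.9 to 35.96 (median 33.9) CPM in Cre Chow and 41.2, 37.7, 51.3, 39.6 and 40.6 CPM in FLCN KO Chow livers, and 34.9, 29.1, 30.98, 31.2 and 43.2 CPM in Cre MCD and 41.3 to 50.2 (median 45.9) CPM in FLCN KO MCD livers. Its libraries separated on chow and overlapped on MCD through Cre MCD 5. The Sumf1 difference was 0.32 (SE 0.10, adjusted p = 0.047) on chow and 0.44 (SE 0.10, adjusted p = 0.0042) on MCD. The call on chow was kept in only 11 of 33 fits, and it was lost with each single Cre Chow library left out, with each of FLCN KO Chow 1, 3, 4 and 5, and with Cre MCD 1 or 4 or any FLCN KO MCD library other than replicate 2 (0.24 to 0.34, adjusted p = 0.051 to 0.14). Without the 5 chow libraries with a low mapped share the Sumf1 value on chow was 0.18 (adjusted p = 0.54). The remaining sulfatases did not pass in either genotype comparison, although all had values above 0. Ids (iduronate sulfatase) had 0.24 and 0.14 on chow and MCD, Sgsh (heparan sulfamidase) 0.29 and 0.01, and Galns (which acts on keratan sulfate) 0.57 (adjusted p = 0.076) and 0.52 (adjusted p = 0.063). Galns passed on MCD in DESeq2 (0.52, adjusted p = 0.047) and without FLCN KO MCD 5 (0.66, adjusted p = 0.0068), and on chow when only the groups compared were fitted (0.60, adjusted p = 0.025), with sex as a covariate (0.61, adjusted p = 0.022) and without FLCN KO MCD 5 (0.57, adjusted p = 0.026).

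Arsa, arylsulfatase A, which degrades sulfatide, was spread widely within the chow groups. In Cre Chow livers it measured 39.8, 46.1 and 58.9 CPM in the 3 libraries with a low mapped share and 15.2, 16.1 and 16.5 CPM in the others. In FLCN KO Chow livers it measured 85.5 and 77.0 CPM in the 2 libraries with a low mapped share and 33.5, 40.2 and 39.5 CPM in the others. Within each kind of library the FLCN KO values lay above the Cre values, while the groups as a whole overlapped. On chow Arsa differed by 0.78 (SE 0.32, adjusted p = 0.13) in all libraries and 1.24 (adjusted p = 0.00036) without the 5 libraries. On MCD it measured 53.6, 53.5, 74.6, 64.7 and 42.7 CPM in Cre and 78.7 to 105 (median 95.1) CPM in FLCN KO livers, without overlap, with a difference of 0.67 (SE 0.32, adjusted p = 0.16). The Arsa difference on MCD was 0.67 (adjusted p = 0.0011) in the fit without the 5 chow libraries. It was 0.67 (adjusted p = 0.0067) when only the groups compared were fitted. With sex, as read from the counts, added as a covariate, the differences were 0.92 on chow (adjusted p = 0.0079) and 0.64 on MCD (adjusted p = 0.037), and the sex term for Arsa was 0.80 male over female (SE 0.15, adjusted p = 0.0037). The sex term passed for 2 members, Arsa and Manba (0.32, adjusted p = 0.03), and for 2.7% of all tested genes.

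Among lipid and thioester hydrolases 1 member rose on chow and 2 rose on MCD, of 5. Ppt1, palmitoyl-protein thioesterase, which takes fatty acids off proteins, measured 29.1 to 33.5 (median 31.8) CPM in Cre Chow and 45.2, 46.05, 45.9, 52.8 and 52.5 CPM in FLCN KO Chow livers. On MCD the Ppt1 values were 40.97, 35.7, 36.8, 35.6 and 42.9 CPM in Cre and 44.7 to 53.6 (median 51.8) CPM in FLCN KO livers. Ppt1 separated the genotypes on both diets, and Cre values were higher on MCD than on chow. For Ppt1 the difference was 0.63 (SE 0.07, adjusted p = 4.0e-06) on chow and 0.40 (SE 0.07, adjusted p = 6.5e-04) on MCD. Cap1 shares 3.51% of the Ppt1 exon length on the other strand and had a mean of 2065 counts against 790.9 for Ppt1. Cap1 means were 1343 unscaled counts in Cre Chow, 1691 in FLCN KO Chow, 2450 in Cre MCD and 2778 in FLCN KO MCD libraries, so they were higher in FLCN KO on each diet, as for Ppt1.

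Asah1, acid ceramidase, measured 39.9 to 50.9 (median 44.8) CPM in Cre Chow and 48.2, 56.9, 60.9, 59.8 and 69.03 CPM in FLCN KO Chow livers. With MCD, Asah1 measured 39.2, 30.8, 41.1, 39.8 and 51.1 CPM in Cre and 46.1 to 72.8 (median 56.2) CPM in FLCN KO livers. Its genotypes overlapped on both diets, and the difference was 0.40 (SE 0.13, adjusted p = 0.063) on chow and 0.52 (SE 0.13, adjusted p = 0.0094) on MCD. Lipa, lysosomal acid lipase, which releases fatty acids and cholesterol from lipid droplets and lipoproteins taken up by lysosomes, did not pass in any comparison in the fit of all 4 groups with TMM scaling, but its rise with MCD in FLCN KO livers passed when only the groups compared were fitted (0.31, adjusted p = 0.04), and with library size alone it rose with MCD in Cre (0.59, adjusted p = 0.0028) and FLCN KO livers (0.58, adjusted p = 0.005). Lipa measured 207 to 412 (median 347) CPM in Cre Chow, 276, 359.9, 276, 361 and 332 CPM in FLCN KO Chow, 395, 303, 317, 402 and 457 CPM in Cre MCD and 354 to 493 (median 380.0) CPM in FLCN KO MCD livers. The 4 groups overlapped, and the genotype difference was -0.04 (SE 0.16, adjusted p = 0.91) on chow and 0.09 (SE 0.16, adjusted p = 0.75) on MCD. Smpd1 (acid sphingomyelinase) had 0.26 on chow (adjusted p = 0.072) and 0.18 on MCD (adjusted p = 0.17), and Ppt2, a second thioesterase gene, 0.13 and 0.24. Gm20460 shares 36.6% of the Ppt2 exon length on the same strand and had 0 counts in these libraries.

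Peptidases and the amidase were the class with the largest median difference, 0.68 on chow and 0.89 on MCD, and 3 of its 4 members rose on both diets. Dpp7, a dipeptidyl peptidase of lysosomes and related vesicles, lies on chromosome 2 (GRCm38, 25352276 to 25356359, minus strand) and carries the E-box window shown above. It measured 15.01 to 24.3 (median 18.7) CPM in Cre Chow and 72.6, 39.3, 62.5, 66.1 and 43.3 CPM in FLCN KO Chow livers. On MCD it measured 15.2, 15.3, 11.1, 17.5 and 18.03 CPM in Cre and 33.7 to 40.2 (median 38.95) CPM in FLCN KO livers. FLCN KO Chow 2 and 5 were lower than the other 3 of their group, and all FLCN KO libraries lay above all Cre libraries. Dpp7 differed by a log2 fold change of 1.59 (SE 0.15, adjusted p = 3.5e-07) on chow (3.01-fold) and 1.30 (SE 0.15, adjusted p = 6.1e-06) on MCD (2.47-fold).

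Tpp1, tripeptidyl peptidase, whose loss causes a childhood neuronal ceroid lipofuscinosis, measured 72.0 to 88.4 (median 77.7) CPM in Cre Chow and 138, 107, 137, 129.5 and 123 CPM in FLCN KO Chow livers. On MCD the Tpp1 values were 71.4, 70.7, 74.7, 73.9 and 70.5 CPM in Cre and 118 to 153 (median 146) CPM in FLCN KO livers. The Cre MCD libraries were tightly grouped, and the genotypes separated on both diets. Tpp1 differed by 0.69 (SE 0.08, adjusted p = 4.3e-06) on chow and 0.96 (SE 0.08, adjusted p = 9.2e-08) on MCD. Aga, which splits the bond between asparagine and glycans, measured 13.3 to 18.7 (median 15.8) CPM in Cre Chow and 27.4, 20.4, 27.3, 23.5 and 26.9 CPM in FLCN KO Chow livers. With MCD, Aga measured 18.1, 16.4, 16.4, 13.6 and 16.9 CPM in Cre and 24.4 to 31.1 (median 29.4) CPM in FLCN KO livers. Aga also separated the genotypes on both diets, FLCN KO Chow 2 being the lowest of the knockout libraries. The Aga difference was 0.66 (SE 0.10, adjusted p = 1.2e-04) on chow and 0.82 (SE 0.10, adjusted p = 7.6e-06) on MCD.

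Lgmn, legumain, an asparaginyl endopeptidase that matures other lysosomal proteases, did not pass between genotypes. It measured 72.05 to 90.3 (median 82.5) CPM in Cre Chow and 105, 97.4, 102, 87.1 and 99.2 CPM in FLCN KO Chow livers. On MCD it measured 152, 136, 111, 189 and 182 CPM in Cre and 90.4 to 167 (median 116) CPM in FLCN KO livers. The genotypes overlapped on both diets, with a difference of 0.26 (SE 0.14, adjusted p = 0.28) on chow and -0.36 (SE 0.14, adjusted p = 0.088) on MCD.

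**Figure D3:**
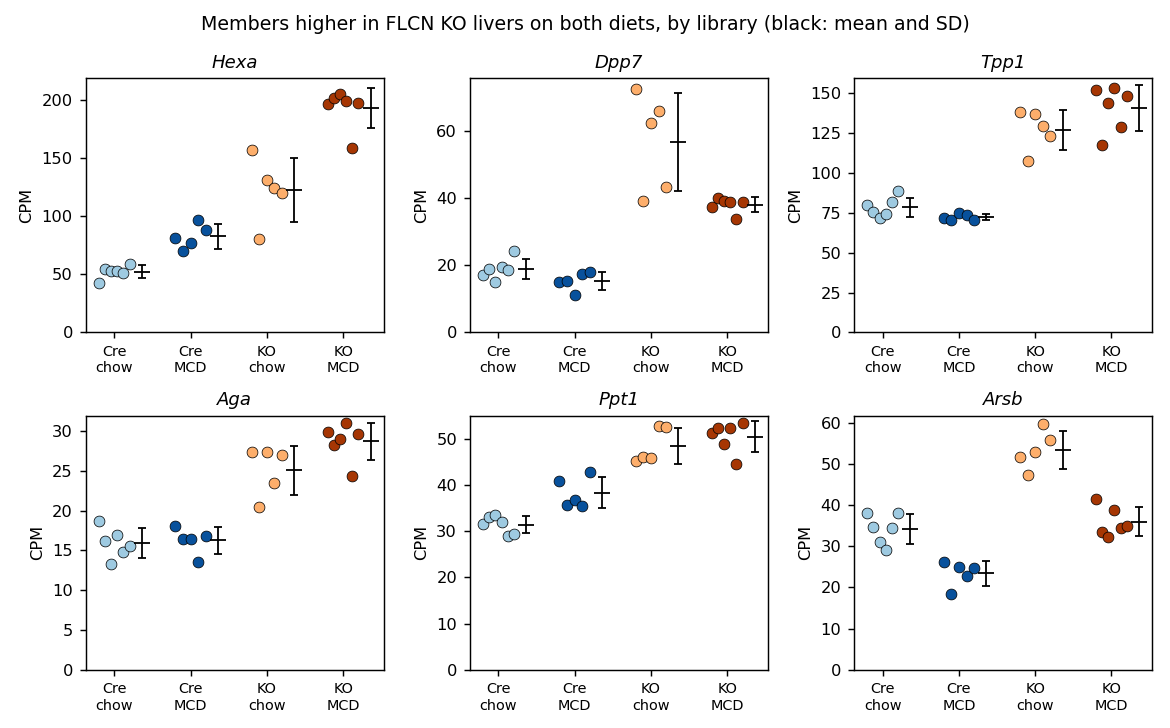
CPM in each of the 22 libraries for 6 members that rose in FLCN KO livers on both diets (Hexa, Dpp7, Tpp1, Aga, Ppt1 and Arsb), by group, with the mean and SD in black. On each diet all FLCN KO points lie above all Cre points, and Arsb and Dpp7 are lower in FLCN KO livers on MCD than on chow.

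Among the activators, the carrier and the acetyltransferase, no member rose in FLCN KO livers and Gm2a fell on MCD. Gm2a encodes the activator that presents gangliosides to the hexosaminidase built from the Hexa product. It measured 204 to 259.7 (median 229) CPM in Cre Chow and 215, 203, 221, 198 and 279 CPM in FLCN KO Chow livers. On MCD it measured 168, 96.5, 114, 163 and 182 CPM in Cre and 86.5 to 119 (median 100.3) CPM in FLCN KO livers, where Cre MCD 2 and 3 lay inside the FLCN KO range. Gm2a had a difference of -0.04 (SE 0.14, adjusted p = 0.9) on chow and -0.52 (SE 0.14, adjusted p = 0.012) on MCD. On MCD, Hexa rose and the gene of its activator fell. Psap, prosaposin, the precursor of the saposins that activate sphingolipid hydrolases, measured 449.9 to 551 (median 501) CPM in Cre Chow and 610.3, 575, 560.0, 602 and 585 CPM in FLCN KO Chow livers. Psap on MCD measured 767, 629, 764, 936 and 740.5 CPM in Cre and 757 to 943 (median 845) CPM in FLCN KO livers. Its chow groups did not overlap, but the difference did not pass the test, at 0.23 (SE 0.09, adjusted p = 0.12) on chow and 0.15 (SE 0.09, adjusted p = 0.29) on MCD. Npc2, a cholesterol carrier, had 0.31 and 0.23 on the 2 diets, and Hgsnat, the membrane enzyme that acetylates heparan sulfate, -0.23 and -0.03.

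With the MCD diet the set moved in both directions. In Cre livers 13 members rose and 6 fell, where 29.3% of all tested genes rose and 28.2% fell. In FLCN KO livers 9 rose and 4 fell, where 22.5% of all genes rose and 22.5% fell. The median log2 fold change of the members was 0.23 in Cre and 0.15 in FLCN KO livers, against 0.01 and 0.00 over all genes. These comparisons use the same libraries as the genotype comparisons. Without the 5 chow libraries with a low mapped share the members' median in Cre livers was 0.07, with 11 members higher and 6 lower. The size of these counts, and how far higher calls outnumbered lower ones, depended on the scaling. Scaled by library size alone, 22 members rose and 1 fell in Cre livers and 22 rose and 3 fell in FLCN KO livers, while 7900 genes rose and 1748 fell in Cre livers (4121 and 3968 with TMM), 5803 rose and 1731 fell in FLCN KO livers (3162 and 3166 with TMM), all genes shifted by a median of 0.43 and 0.27, and the members' median lay 0.21 and 0.14 above that of all genes.

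Galns, Smpd1, Psap, Gusb, Hexa, Galc and Man2b1 rose with MCD in both genotypes. Galns measured 6.97 ± 1.29 CPM (mean ± SD) in Cre Chow (n = 6) and 15.5 ± 1.93 CPM in Cre MCD (n = 5), 2.23-fold, and 10.4 ± 1.61 CPM in FLCN KO Chow (n = 5) and 22.3 ± 7.59 CPM in FLCN KO MCD (n = 6), 2.15-fold. The log2 fold changes with MCD for Galns were 1.16 (SE 0.20, adjusted p = 3.6e-05) in Cre and 1.11 (SE 0.20, adjusted p = 9.7e-05) in FLCN KO livers. Smpd1 measured 54.1 ± 5.95, 88.1 ± 8.51, 64.7 ± 8.26 and 99.9 ± 5.32 CPM in the groups in that order, with log2 fold changes of 0.71 (SE 0.09, adjusted p = 8.3e-07) in Cre and 0.63 (SE 0.09, adjusted p = 7.6e-06) in FLCN KO livers. Smpd1 groups did not overlap between diets in either genotype. Psap rose by 0.62 in Cre and 0.54 in FLCN KO livers, Hexa by 0.66 and 0.66, Galc by 0.44 and 0.73, Gusb by 0.77 and 0.29, and Man2b1 by 0.26 and 0.37. Hexa rose with both genotype and diet, from a mean of 52.0 CPM in Cre Chow to 193 CPM in FLCN KO MCD livers.

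Glb1, Arsb and Gm2a fell with MCD in both genotypes. Glb1 measured 17.6 ± 2.96 CPM in Cre Chow, 7.82 ± 0.857 CPM in Cre MCD, 20.6 ± 3.05 CPM in FLCN KO Chow and 8.13 ± 1.21 CPM in FLCN KO MCD livers. Its diet groups did not overlap in either genotype, and Glb1 changed by -1.17 (SE 0.13, adjusted p = 2.1e-07) in Cre and -1.34 (SE 0.13, adjusted p = 4.8e-08) in FLCN KO livers. Tmppe shares 5.49% of the Glb1 exon length on the same strand, with a mean of 33.8 counts against 235.5. Its mean unscaled count was 26.8 in Cre Chow, 43.6 in Cre MCD, 25.2 in FLCN KO Chow and 39.7 in FLCN KO MCD libraries. TMM factors were 0.82 to 0.89 in Cre Chow and 1.06 to 1.20 in Cre MCD libraries. They were 0.92 to 0.97 in FLCN KO Chow and 1.06 to 1.16 in FLCN KO MCD libraries. The unscaled Tmppe counts therefore do not show by themselves a rise with MCD. Arsb had -0.54 and -0.57, and Gm2a -0.67 and -1.14. Scaled by library size alone, the fall of Arsb and Gm2a in Cre livers no longer passed (-0.12, adjusted p = 0.24, and -0.26, adjusted p = 0.088).

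Other members passed with MCD in 1 genotype. In Cre livers Lgmn (0.91), Arsa (0.85), Manba (0.41), Sgsh (0.39), Gla (0.33) and Ppt1 (0.29) rose, and Gaa (-0.38), Hgsnat (-0.37) and Fuca1 (-0.29) fell. Scaled by library size alone these 3 falls were lost and the values turned positive (0.049, 0.048 and 0.13). In FLCN KO livers Idua (1.11) and Neu1 (0.62) rose and Dpp7 (-0.58) fell. Several of these calls depended on the libraries or the fit used. When only the groups compared were fitted, Arsa in Cre (0.85, adjusted p = 0.06) and Neu1 in FLCN KO livers (0.61, adjusted p = 0.062) did not pass. Arsa in Cre livers was lost without Cre Chow 2, 3 or 4 or Cre MCD 3 or 4 (0.71 to 0.81, adjusted p = 0.05 to 0.061). Without the 5 chow libraries with a low mapped share, which split its chow values, Arsa rose with MCD by 1.85 in Cre (adjusted p = 1.1e-07) and 1.28 in FLCN KO livers (adjusted p = 4.5e-06). That fit kept only female-reading chow libraries, and the Arsa sex term was 0.80 male over female, so diet and sex cannot be told apart there. In FLCN KO livers Arsa had 0.74 (SE 0.32, adjusted p = 0.064) in all libraries, and it passed there in DESeq2 (0.74, adjusted p = 0.036), in limma-voom (0.85, adjusted p = 0.027) and with sex as a covariate (0.80, adjusted p = 0.0039). Gla in Cre livers was lost without Cre Chow 5 or 6 or Cre MCD 4 (0.26 to 0.29, adjusted p = 0.072 to 0.075) and had 0.18 (adjusted p = 0.29) without those 5 libraries. The Gla call was also lost with the replicate number as a block (0.29, adjusted p = 0.065). Manba in Cre livers was lost without Cre MCD 4 (0.36, adjusted p = 0.051), and in FLCN KO livers Manba (0.45, adjusted p = 0.029) and Tpp1 (0.23, adjusted p = 0.047) passed without the 5 libraries. The same limit holds for this Manba value, as its sex term was 0.32 male over female. The rise of Man2b1 in Cre livers was lost without Cre Chow 3 or Cre MCD 3 or 4 (0.21 to 0.23, adjusted p = 0.05 to 0.069) and without the 5 libraries (0.25, adjusted p = 0.081). In FLCN KO livers, Gusb was lost without FLCN KO Chow 2 (0.21, adjusted p = 0.072) and Neu1 without FLCN KO Chow 2 or 4 or FLCN KO MCD 1 or 6 (0.49 to 0.56, adjusted p = 0.065 to 0.084). The fall of Dpp7 did not pass without the 5 libraries (-0.38, adjusted p = 0.053) or with library size alone (-0.32, adjusted p = 0.07). Card14, which shares 21.6% of the Sgsh exon length on the other strand, went from a mean of 2.83 unscaled counts in Cre Chow to 26.4 in Cre MCD libraries. Ids, Lipa, Ppt2 and Npc2 passed in none of the 5 comparisons in the edgeR fit of all 4 groups with TMM scaling.

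**Figure D4:**
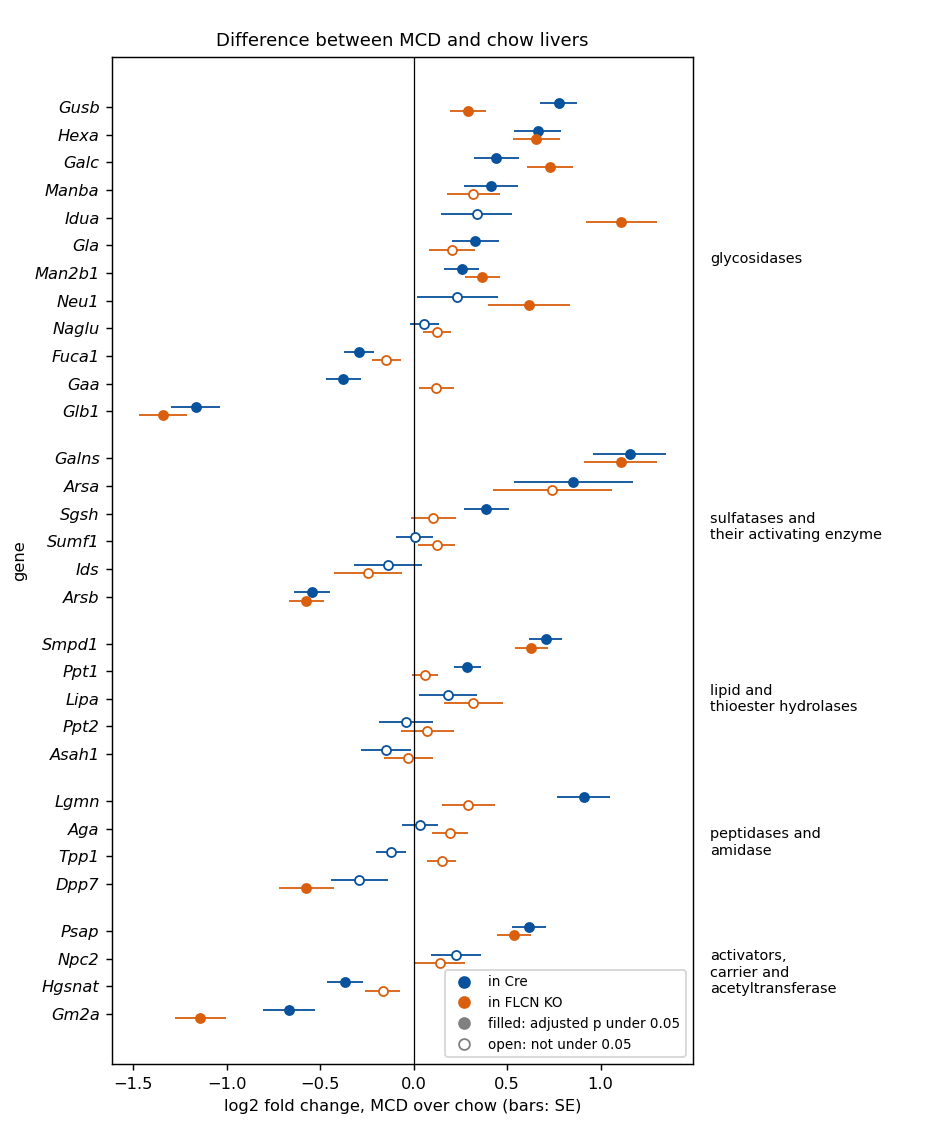
Log2 fold change of MCD over chow livers for each of the 31 members (x axis), grouped by role, in Cre (blue) and FLCN KO (orange) mice, with bars of 1 SE and filled points where the edgeR adjusted p is under 0.05. Galns lies to the right in both genotypes (1.16 and 1.11) and Glb1 (-1.17 and -1.34) and Gm2a (-0.67 and -1.14) to the left.

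Per kilobase of annotated exon, Psap was the most abundant member (246 CPM per kilobase over the 4 group means), followed by Hexa (56.3), Lipa (52.6) and Lgmn (48.9), and Galc the least (0.611), partly through a long exon union of 14879 bases. Between group means Hexa rose from 26.1 CPM per kilobase in Cre Chow to 96.6 in FLCN KO MCD livers. The summed level of all members was 2217 ± 141 CPM in Cre Chow (n = 6), 2615 ± 259.5 in Cre MCD (n = 5), 2681 ± 117.5 in FLCN KO Chow (n = 5) and 3165 ± 237.9 in FLCN KO MCD livers (n = 6). The glycosidase sum was 511 ± 20.5, 555 ± 35.4, 674 ± 76.1 and 838 ± 82.0 CPM in the same order.

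Other genes of the pathway were taken from lists. The list of further lysosomal enzymes is given in part, so its counts describe only the 17 genes given here and are not read against all genes. In FLCN KO livers 5 of the 17 rose and 12 did not pass on each diet, and 12 had values above 0 on each diet. None was called lower in edgeR, and at an unadjusted p under 0.05 none was lower on chow and 2 were lower on MCD, Acp2 (-0.20), an acid phosphatase, and Naaa (-0.39), an amidase. Those that passed on both diets were Fuca2, a second fucosidase gene (0.91 and 0.82), Plbd2, a phospholipase B-like protein (0.45 and 0.56), Acp5, an acid phosphatase (0.50 and 0.56), and Man2b2, a mannosidase (0.37 and 0.43). Dnase2a, a lysosomal nuclease (0.52), passed on chow, and Scpep1, a carboxypeptidase-like protein (0.50), passed on MCD. Of the 6 genes for the mannose 6-phosphate tag and its receptors, only Gnptab, a subunit of the transferase that adds the tag, passed on chow (0.43 (SE 0.13, adjusted p = 0.045)), and only Gnptg, another subunit, passed on MCD (0.44 (SE 0.08, adjusted p = 5.7e-04)).

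Among the 7 genes for Flcn, its partners and the MiT-TFE factors, Flcn passed on chow as given above. On MCD the partners Fnip1 (0.58 (SE 0.15, adjusted p = 0.0095)) and Fnip2 (1.33 (SE 0.27, adjusted p = 0.0017)) rose, and Tfe3 (-0.29 (SE 0.07, adjusted p = 0.0061)) and Mitf (-0.48 (SE 0.16, adjusted p = 0.048)) fell. Fnip2 had 0.79 (SE 0.26, adjusted p = 0.064) on chow. Tfeb did not pass on either diet (-0.07 and -0.13). These are transcript levels, and the location of the factors in the cell was not measured here.

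Markers of other cell types moved with the groups. On chow 4 of 10 infiltrating macrophage markers rose in FLCN KO livers (Cx3cr1, Trem2, Gpnmb and Cd9), and on MCD 5 of the 10 fell (Itgam, Trem2, Lyz2, Cd68 and Itgax), while 14 hydrolase members rose. Of these markers, all 10 had a value above 0 on chow (median 0.84) and 2 on MCD (median -0.80). At an unadjusted p under 0.05 in edgeR, 8 of the markers were higher on chow and 7 were lower on MCD. Gpnmb and Lyz2 were the most abundant of these markers on MCD. Gpnmb had means of 129 CPM in Cre MCD and 137 in FLCN KO MCD livers, against 179 and 98.4 CPM for Lyz2. In Cre Chow livers Gpnmb had a mean of 0.30 CPM. The summed level of the 10 markers, led over all libraries by Lyz2 with a mean of 106 CPM, was 102 ± 10.9 CPM in Cre Chow, 148 ± 12.7 in FLCN KO Chow, 422 ± 144 in Cre MCD and 314 ± 121 in FLCN KO MCD livers. Kupffer cell markers, 11 genes led by Cd5l with a mean of 149 CPM, summed to 653 ± 115, 739 ± 109, 669 ± 181 and 564 ± 161 CPM in that order, and 1 rose on chow (Marco) and 2 on MCD (Timd4 and Cd163). Of the 11, 10 had a value above 0 on chow (median 0.15) and 3 on MCD (median -0.31), where none was called lower in edgeR and 4 were lower at an unadjusted p under 0.05. Hepatocyte markers, 8 genes, summed to 136800 ± 19900 CPM in Cre Chow, 113100 ± 20650 in FLCN KO Chow, 90540 ± 13870 in Cre MCD and 72670 ± 8810 in FLCN KO MCD livers, and 1 fell in FLCN KO livers on each diet (Ttr on chow and Tat on MCD). Of the 8, 0 had a value above 0 on chow (median -0.34) and 2 on MCD (median -0.11), and 2 were lower at an unadjusted p under 0.05 on each diet. Of 7 endothelial markers, led by Ptprb (66.5 CPM), Stab2 rose in FLCN KO livers on both diets (0.76 and 0.62), and the list summed to 264 ± 48.6, 300.3 ± 36.3, 204 ± 20.4 and 229 ± 10.9 CPM in the same order. Of 8 stellate cell and fibroblast markers, led by Dcn (276 CPM), none passed on chow in edgeR (1 at an unadjusted p under 0.05) and 5 fell on MCD, and the sums were 333 ± 80.8, 381 ± 76.7, 614 ± 142 and 421 ± 41.5 CPM. The list holds Des, which measured 146.2 CPM in Cre MCD 3, the library with the most skeletal muscle transcripts, and 5.99 to 15.28 CPM in the other Cre MCD libraries.

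Neutrophil markers (6 genes, 4 tested, led by S100a9 at 6.64 CPM) summed to 5.96 CPM in Cre Chow, 6.38 in FLCN KO Chow, 32.0 in Cre MCD and 18.1 in FLCN KO MCD livers, and lymphocyte markers (8 genes, 6 tested, led by Cd79a at 1.02 CPM) to 5.01, 8.65, 4.84 and 4.15 CPM. Bile duct markers (5 genes, led by Sox9 at 15.3 CPM) summed to 20.4, 22.5, 25.4 and 28.9 CPM. Of these 3 lists, no tested gene passed between genotypes on chow in edgeR (4 at an unadjusted p under 0.05: 2 lymphocyte and 2 bile duct markers), and Csf3r fell and Sox9 rose on MCD. Skeletal muscle markers (10 genes, led by Myh1 at 29.8 CPM) all fell between Cre MCD and FLCN KO MCD livers, with Cre MCD 3 in the former group. In no list was a marker at 0 in every library. The part of cell composition in the hydrolase differences was not tested.

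**Figure D5:**
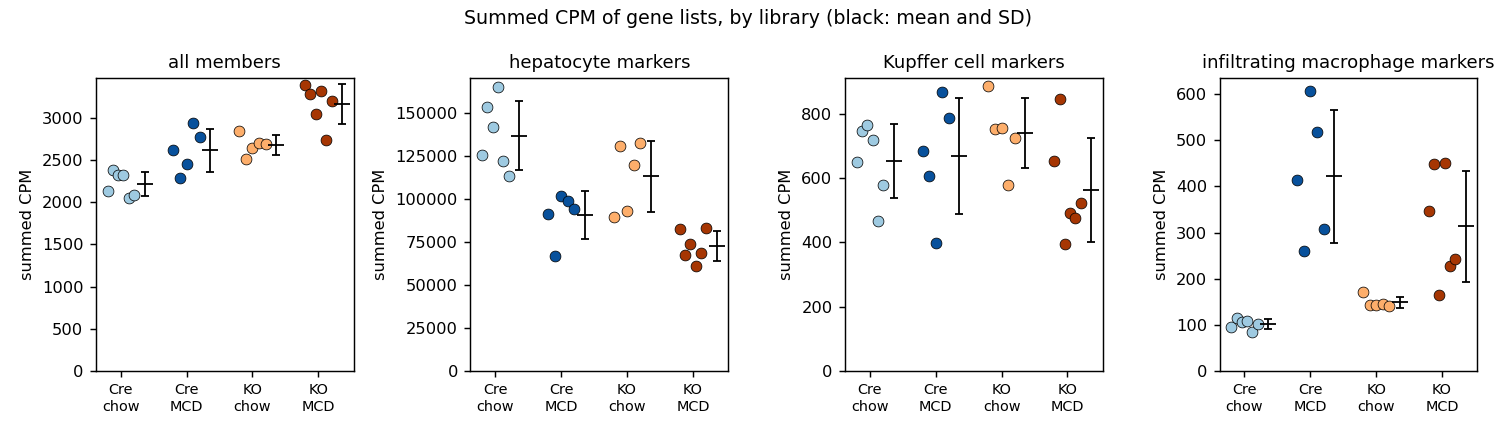
Summed CPM per library of the 31 members and of the hepatocyte, Kupffer cell and infiltrating macrophage markers, by group, with the mean and SD in black. On MCD the members' mean is higher in FLCN KO than in Cre livers (3165 against 2615 CPM), while the infiltrating macrophage mean is lower (314 against 422 CPM).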

How the data were processed

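Livers of 22 mice were profiled by mRNA-seq in 4 groups. The authors extracted total RNA, made libraries with the KAPA mRNA HyperPrep kit and unique molecular identifiers, trimmed reads with Trimmomatic, aligned them to GRCm38 with STAR and counted them with HTSeq, per the labels and the study's methods. The deposited table holds whole-number read counts per gene, not normalized. Tool versions, the strand setting and a step that collapses identifiers are not given in the sources used here, so counts may include amplification copies. Reads where genes overlap on opposite strands may have been dropped or assigned to either gene. All columns had a sample, and 0 had none. Total counts ranged from 13751347 to 21144388, and replicates within a group (50 pairs) held 0 identical pairs.

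The 14062 genes whose counts averaged 10 or more were fitted with edgeR 4.0.16 in R 4.3.3, with TMM factors, 1 fit of the 4 groups and the two-sided quasi-likelihood test, and p-values were adjusted by Benjamini-Hochberg over all tested genes. The labels name separate mice but not litters or cages. The diets were compared within each genotype, the genotypes within each diet, and the interaction made 5 comparisons. CPM values used TMM-scaled library sizes. The counts given for genes that overlap a member are means of read counts not scaled to library size. The fit was tested on simulated data with 200 changed genes. Alternatives were limma-voom (limma 3.58.1), DESeq2 1.42.0, RLE factors, other count filters, the compared groups alone, a replicate block, sex read from the counts, the chow libraries with a low mapped share left out and each library left out in turn. Scaling by library size alone was added after seeing the data. Gene positions came from GENCODE M21 on GRCm38 and promoter windows from RefSeq (GRCm38.p6). The members and the lists were chosen with earlier results of these data known.

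All members are named. Values in every sample, or the lowest, median and highest in the groups of 6, are given for the members that passed between genotypes or in the interaction and for the 4 most abundant per exon length, the others by group means or differences, and further pathway genes where they passed between genotypes. Some genes of the list of further lysosomal enzymes are not reported here.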

Additional observations from a re-analysis of the deposited data

Results flagged for a closer look

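In 6 of the 124 combinations of member and group (4.84%), the highest or lowest library lay apart from the others by more than Dixon's 95% limit, about the share that chance gives. Gaa measured 85.3 CPM in Cre Chow 5 against 91.0 to 93.8 CPM in the other Cre Chow libraries. Hexa measured 159 CPM in FLCN KO MCD 5 against 196 to 205 CPM in the others. In FLCN KO Chow 1, Man2b1 measured 166 CPM (135.9 to 141 CPM in the others) and Fuca1 114 CPM (91.1 to 94.7 CPM). Sumf1 measured 51.3 CPM in FLCN KO Chow 3 (37.7 to 41.2 CPM), and Gm2a measured 279 CPM in FLCN KO Chow 5 (198.5 to 221 CPM). The genotype difference of 2 members differed between diets in edgeR's interaction test, Gaa by 0.50 and Gusb by -0.49 on the log2 scale. That is 1 member higher and 1 lower, where 3.29% of all tested genes were higher and 5.54% lower. Both calls were lost without the 5 chow libraries with a low mapped share, where the values stayed close (0.56, adjusted p = 0.07 for Gaa and -0.46, adjusted p = 0.12 for Gusb). Each call was lost in further fits given above.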

How the results depend on the processing

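The counts of members that passed between genotypes were 10 higher and 0 lower on chow and 14 higher and 1 lower on MCD, and with single libraries left out they ranged from 9 to 12 and 0 to 0, and from 14 to 15 and 1 to 2. With MCD they were 13 higher and 6 lower in Cre livers (9 to 14 and 6 to 6 with single libraries left out) and 9 and 4 in FLCN KO livers (7 to 11 and 4 to 4). The interaction counts of 1 and 1 ranged from 1 to 2 and from 0 to 3. Scaled by library size alone, 22 members rose and 1 fell with MCD in Cre livers, 22 rose in FLCN KO livers, 18 rose between genotypes on chow, and the interaction gave 0 and 4. All genes then shifted by a median of 0.12 on chow between genotypes and -0.13 in the interaction, and the members' median between genotypes lay 0.34 above it on chow and 0.41 on MCD. With that scaling the fall with MCD in Cre livers turned to 0.049 for Gaa, 0.13 for Fuca1 and 0.048 for Hgsnat, none of which passed, and the values of Ppt2 (0.38) and Tpp1 (0.30) turned positive and passed. For the interaction, limma-voom gave 2 higher, DESeq2 gave 2 higher and 2 lower, no filter on low counts gave 0 higher, at least 10 counts in every library gave 2 lower, sex as a covariate gave 2 lower, and the fit without the 5 low-mapped chow libraries gave 0 and 0. The replicate numbers were not taken to pair mice, since in no comparison were all 5 correlations of deviations above 0.1 (between genotypes 3 of 5 on chow, -0.621 to 0.516, and 3 of 5 on MCD, 0.0624 to 0.137, and between diets 0 of 5 in Cre and 1 of 5 in FLCN KO livers). The replicate block gave 0 higher and 1 lower in the interaction, 9 higher and 0 lower on chow and 14 and 1 on MCD between genotypes, with 1, 0, 0 and 1 libraries correlating best with their own number in the 4 comparisons. The causes of these changes were not tested. Genes of low abundance such as Galc and Idua (means of 175 and 131.5 counts per library) carry the largest counting error. Antisense or overlapping genes could add reads to, or cause reads to be dropped from, Hexa, Arsb, Idua, Ppt1, Arsa, Sgsh, Glb1, Galc and Ppt2.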
